A study of Homo sapiens with 6 samples.

Results

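A group of 10 genes of calcium handling at the endoplasmic reticulum (ER) were followed in CNTNAP4 knockout (KO) and vector control (VC) cells. They are the junctophilins JPH1 and JPH2, the IP3 receptors ITPR1, ITPR2 and ITPR3, the SERCA pumps ATP2A2 and ATP2A3, the ER calcium sensors STIM1 and STIM2, and the channel pore ORAI1. The 10 members were chosen with earlier KO against VC results of these same libraries in view, and so were selected on that contrast. Their KO against VC values are therefore a description and carry no test. All 10 members, of 54308 genes listed, had a value in each of the 6 libraries and passed the requirement of 2 values per group, as did 19306 genes in all.

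Bulk RNA sequencing was performed on 143B, an established human osteosarcoma cell line, in 3 VC and 3 KO libraries. VC cells had received a vector control plasmid and KO cells a CRISPR/Cas9 plasmid against CNTNAP4. The study's CRISPR/Cas9 methods list a guide sequence for the negative control plasmid as well. CNTNAP4 is a contactin-associated cell surface protein and receptor for the secreted osteogenic protein NELL-1. Both groups were exposed to the transfection reagent, for 48 h by the labels. A longer incubation with the plasmids is given in the study's CRISPR/Cas9 methods. The study's methods describe later sorting and expansion of single-cell colonies and RNA from clonal cells. Which clone each library came from was not stated, so an effect of the knockout and a difference between clones cannot be told apart, and p-values measure the spread between RNA samples only.

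Calcium is stored in the ER lumen by the SERCA pumps, which hydrolyse ATP to move it in from the cytosol. IP3 receptors release it when phospholipase C makes inositol trisphosphate (IP3). When the store empties, STIM proteins in the ER membrane sense the loss, gather where the ER touches the plasma membrane and open ORAI channels, a process called store-operated calcium entry. Junctophilins are bound to the ER membrane at one end and to the plasma membrane at the other, and are best known for holding the membranes together at the calcium release sites of muscle.

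The values are log2 signals per gene that had been normalized between libraries, which did not make the medians of the tested genes equal. The libraries held values for 20333 to 21041 genes, with a median log2 signal of 0.62 and a range from -10.87 to 12.04. Genes with a value in only 1 library, which mark the lower end of detection, had a median log2 signal of -6.47, and the lowest value of any member was -1.47. CNTNAP4 itself had a value in 1 library alone, VC replicate 3, at a log2 signal of -7.18, so that the signals give no measure of the knockout. The paper reports the deletion in its KO clones from qRT-PCR, western blot and an endonuclease assay. Among osteoblast and bone matrix markers, RUNX2, a transcription factor of the bone lineage, ranged from 1.30 to 1.69 on the log2 scale, while IBSP, a bone matrix protein, had no value. The summed linear signal of the 10 markers was 106 to 110 in VC and 140 to 150 in KO. Of the 14 markers of skeletal and cardiac muscle, the tissues in which junctophilins are best known, 6 had no value (MYOD1, MYOG, MYF5, TNNT3, CKM and CAV3), and the summed linear signal was 0.109 to 0.252 in VC and 0.0729 to 0.13 in KO. The 6 blood markers summed to 21.7 to 23.0 in VC and 52.3 to 88.1 in KO, a sum carried by the lysosomal protein CD68. The 5 epithelial markers summed to 577 to 640 in VC and 553 to 609 in KO, and the junction protein CDH1 had a value in 1 library alone. The part of these markers in the members' differences was not tested.

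JPH1 and JPH2 were both lower in KO and differed more than any of the other 8 members. JPH1 had log2 signals of 2.54, 2.54 and 2.58 in VC and 1.06, 0.33 and 0.59 in KO. Its 3 VC libraries were nearly level, with a mean of 2.55 ± 0.0186 (SD, n = 3), and every KO library was below them by at least 1.48, with a mean of 0.66 ± 0.367 (SD, n = 3). The log2 difference, KO minus VC, was -1.89 (SE 0.193), so that the linear signal in KO was 26.9% of that in VC. In bulk RNA, fewer cells with a transcript and less transcript per cell cannot be told apart. JPH2, the junctophilin best known from heart muscle, had log2 signals of 1.39, 1.22 and 1.27 in VC and 0.05, -1.47 and -0.77 in KO. Again every KO library was below every VC library, here with a gap of 1.17. The log2 difference of JPH2 was -2.02 (SE 0.385), or 24.7% of the linear VC signal. KO replicate 1 had the highest signal of both genes within the group and KO replicate 2 the lowest. The log2 signal of JPH1 exceeded that of JPH2 by 1.26 ± 0.0921 in VC and 1.39 ± 0.396 in KO (SD, n = 3 each), and these ranges overlapped.

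**Figure D1:**
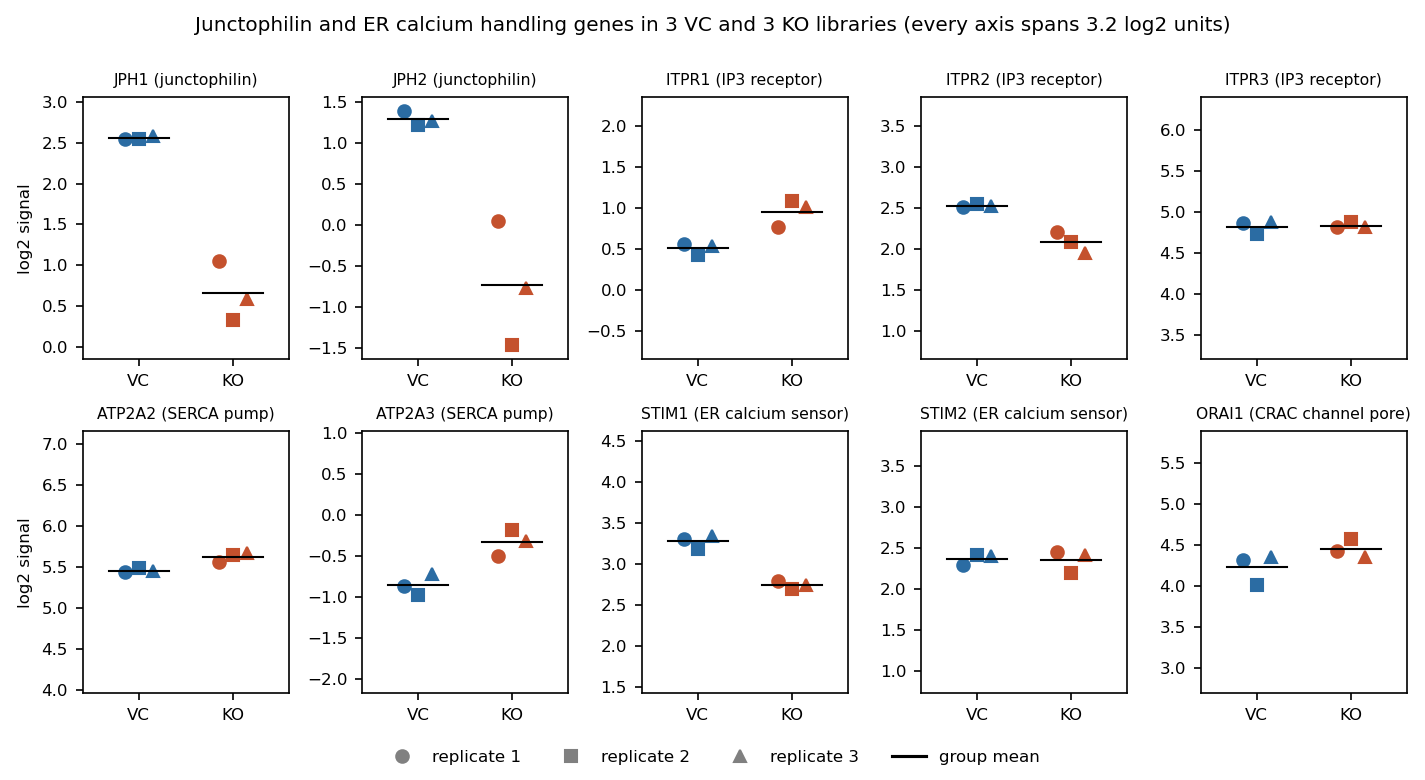
Log2 signal (vertical axis) of the 10 members in VC (blue) and KO (red), 1 panel per gene; circles, squares and triangles stand for replicates 1, 2 and 3, bars for group means, and every axis spans 3.2 log2 units. JPH1 and JPH2 show the widest separation, with gaps between the groups of 1.48 and 1.17, and ITPR3, STIM2 and ORAI1 overlap.

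The remaining junctophilins differed from each other in level. JPH3, the isoform best known from brain, fell in KO, with log2 signals of 2.57, 2.25 and 2.51 in VC and 2.05, 1.27 and 1.68 in KO (difference -0.78, SE 0.219, adjusted p = 0.0466). When 1 library was omitted in turn, the call was made in 1 of 6 fits, with adjusted p up to 0.127. JPH4 had values in only 2 VC libraries (-7.91 and -5.84) and 2 KO libraries (-7.02 and -6.4), near the lower end of detection. Its difference was 0.17 (SE 0.84, 95% interval -2.35 to 2.68), from which no direction can be read. The summed linear signal of JPH1, JPH2 and JPH3 was 13.8 ± 0.779 in VC and 5.53 ± 1.62 in KO (SD, n = 3 each). Within that sum, JPH1 held 42.7% ± 2.3 in VC and 29.4% ± 1.55 in KO, while JPH3 held 39.5% ± 2.33 and 59.1% ± 1.82 (SD, n = 3 each). The order of JPH1 and JPH3 changed between VC libraries, and JPH3 held more than JPH1 in each KO library.

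Such comparisons between genes need values per transcript length. The linear unit was not named in the sources used here, but over 2002 sparsely detected genes the log2 signal fell with the log2 length of the longest annotated transcript at a slope of -0.95, as values divided by length would, and the signals were read in that way. On this scale the VC means ran from ATP2A2 (5.46) through ITPR3 (4.82), ORAI1 (4.23), STIM1 (3.28), JPH1 (2.55), ITPR2 (2.52), STIM2 (2.37), JPH2 (1.29) and ITPR1 (0.51) to ATP2A3 (-0.85). JPH1 and ITPR2 did not differ beyond their spread in VC.

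**Figure D2:**
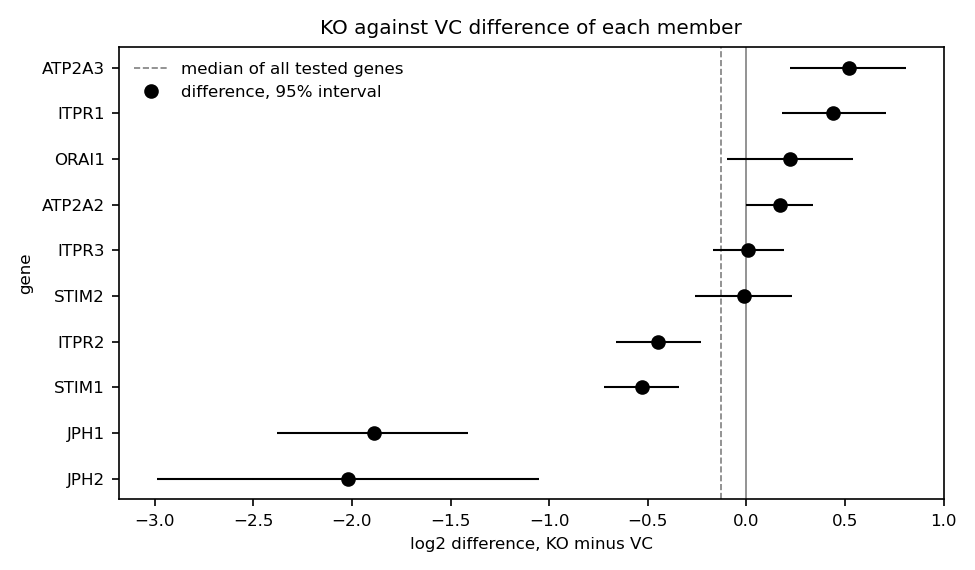
Log2 difference, KO minus VC (horizontal axis), of each member (vertical axis); points are differences from 3 VC and 3 KO libraries, bars 95% intervals, and the dashed line the median of all tested genes at -0.13. The order runs from JPH2 at -2.02 to ATP2A3 at 0.52.

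Of the 10 members, 6 were past an adjusted p of 0.05 in the fit over all genes, 4 lower and 2 higher in KO. Over all 19306 genes tested the call was made for 32.9%, with 19.8% lower and 13.1% higher, and since the members were chosen with this contrast in view nothing was read from their count. The groups did not overlap for 7 members, against 59.3% of the 17698 genes with 6 values. The median difference of the members was -0.00163, beside -0.13 over all genes tested. The count of members called was 1, 2 and 1 without VC replicate 1, 2 or 3, and 7, 4 and 2 without KO replicate 1, 2 or 3. Over all genes the call rate in the same fits was 7.54%, 13.1% and 6.57%, and 47.0%, 23.6% and 10.9%. JPH1 was called in each of these 6 fits, STIM1 in 4, JPH2 and ITPR2 in 2, and ITPR1, ATP2A3 and ATP2A2 in 1. ATP2A2, which was not called with all 6 libraries, passed without KO replicate 1 and also with 1 added to linear values, with trend and robust moderation, and among the upper 50% of signals. KO replicate 2 was the KO library farthest from the VC mean for 8 members, as for 61.1% of all genes.

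The IP3 receptors, the ER release channels, did not change in the same direction. ITPR1, the subtype best known from neurons, had log2 signals of 0.56, 0.42 and 0.53 in VC and 0.77, 1.08 and 1.01 in KO, all KO libraries above all VC libraries. The difference was 0.44 (SE 0.107), or 136% of the linear VC signal. ITPR2 had log2 signals of 2.51, 2.55 and 2.52 in VC and 2.2, 2.08 and 1.95 in KO, all KO libraries below. Its difference was -0.45 (SE 0.0866), or 73.4% of the linear VC signal. ITPR3 had log2 signals of 4.86, 4.73 and 4.87 in VC and 4.82, 4.87 and 4.81 in KO, which overlapped, with a difference of 0.01 (SE 0.0728, 95% interval -0.17 to 0.19). ITPR3 held most of the summed linear signal of the 3 receptors, at 79.7% ± 0.912 in VC and 82.2% ± 0.482 in KO (SD, n = 3 each). ITPR2 held 16.3% ± 0.935 in VC and 12.2% ± 0.997 in KO, and ITPR1 4.01% ± 0.0475 and 5.6% ± 0.577 (SD, n = 3 each). The sum itself was 35.5 ± 1.5 in VC and 34.6 ± 0.78 in KO (SD, n = 3 each), with overlapping ranges.

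Among regulators of these receptors, 10 of 12 were tested, 2 fell, 1 rose and 7 were not called, beside 19.8% and 13.1% over all genes. BCL2, the anti-apoptotic protein that also binds IP3 receptors, had a lower log2 signal in KO, with a difference of -1.31 (adjusted p = 0.0412). AHCYL2, a relative of the IP3 receptor-binding protein AHCYL1, fell by 0.61 (adjusted p = 0.02). ITPRID2, an actin-associated protein with an IP3 receptor-interacting domain, rose by 0.37 (adjusted p = 0.0187). Of the 6 fits without a library, BCL2 and ITPRID2 were called in 2 and AHCYL2 in 3. The ryanodine receptors, the release channels of muscle, were near the lower end of detection, RYR1 at -8.71, -8.63 and -8.19 in VC and -7.82, -6.96 and -7.75 in KO. RYR1 was called higher (difference 1.0, SE 0.284, adjusted p = 0.0472) and in 1 of the 6 fits without a library, but every value was below the median of genes seen in a single library, and RYR2 (-0.19) and RYR3 (0.52) were not called.

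The SERCA pumps were dominated by ATP2A2, the pump of most cell types, with 98.3% ± 0.0909 of the family's linear signal in VC and 98.2% ± 0.131 in KO (SD, n = 3 each). ATP2A2 had log2 signals of 5.44, 5.49 and 5.46 in VC and 5.57, 5.65 and 5.68 in KO. The KO libraries were higher throughout, by a gap of only 0.08, and the difference was 0.17 (SE 0.0674), or 112% of the linear VC signal. ATP2A3, the pump best known from blood cells, had log2 signals of -0.86, -0.97 and -0.72 in VC and -0.5, -0.18 and -0.32 in KO. All KO libraries were again higher, with a difference of 0.52 (SE 0.117), or 143% of the linear VC signal. ATP2A1, the pump of fast skeletal muscle, which is not a member, fell, with a log2 difference of -1.0 (SE 0.157, adjusted p = 0.0137), from 0.427% to 0.192% of the family's signal. The call was lost without VC replicate 3 (adjusted p = 0.0533). Of the pump's other regulators, TMX1, a thiol oxidoreductase of the ER membrane, had a difference of -0.3 (adjusted p = 0.0506) with KO below VC in every library, and the small membrane protein C4orf3 one of 0.14. Of the 4 tested genes of that list, ATP2A1 was the only one called.

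Of the store-operated entry members, STIM1 differed, and the groups overlapped for STIM2 and ORAI1. STIM1 was lower in KO, with log2 signals of 3.3, 3.18 and 3.34 in VC and 2.79, 2.7 and 2.74 in KO, a gap of 0.4 between the groups. The difference was -0.53 (SE 0.0752), or 69.2% of the linear VC signal. STIM2, the sensor that responds to smaller losses of ER calcium, had log2 signals of 2.29, 2.42 and 2.4 in VC and 2.45, 2.2 and 2.42 in KO, which overlapped. Its difference was -0.01 (SE 0.0966, 95% interval -0.26 to 0.23). STIM1 held 65.2% ± 2.03 of the linear signal of both sensors in VC and 56.7% ± 1.67 in KO, and their sum went from 14.9 ± 0.502 to 11.8 ± 0.647 (SD, n = 3 each). ORAI1, the pore of the calcium channel that STIM proteins open, had log2 signals of 4.32, 4.01 and 4.36 in VC and 4.43, 4.57 and 4.35 in KO. The groups overlapped, because VC replicate 3 exceeded KO replicate 3, and the difference was 0.22 (SE 0.126, 95% interval -0.1 to 0.54). The log2 signal of STIM1 minus that of ORAI1 was -0.96 ± 0.113 in VC and -1.71 ± 0.141 in KO (SD, n = 3 each), with no overlap.

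RefSeq promoter windows of GRCh38.p14 were held for 6 members, namely JPH2, ITPR1, ITPR3, ATP2A2, STIM1 and STIM2. JPH1, ITPR2, ATP2A3 and ORAI1 are named only. The 250 bases before the annotated start are shown for JPH2, which was lower with its JPH1 partner, and for the STIM pair, of which 1 gene differed and the other did not. Capitals mark GC boxes, GGGCGG or its reverse complement CCGCCC, letters bound by Sp1-type factors, with overlapping matches counted separately. This search was chosen after the values were seen.
JPH2: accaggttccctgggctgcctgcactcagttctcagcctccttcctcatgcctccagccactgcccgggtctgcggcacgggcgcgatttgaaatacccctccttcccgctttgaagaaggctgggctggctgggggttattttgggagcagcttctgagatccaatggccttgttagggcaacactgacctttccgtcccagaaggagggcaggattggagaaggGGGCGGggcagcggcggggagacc
STIM1: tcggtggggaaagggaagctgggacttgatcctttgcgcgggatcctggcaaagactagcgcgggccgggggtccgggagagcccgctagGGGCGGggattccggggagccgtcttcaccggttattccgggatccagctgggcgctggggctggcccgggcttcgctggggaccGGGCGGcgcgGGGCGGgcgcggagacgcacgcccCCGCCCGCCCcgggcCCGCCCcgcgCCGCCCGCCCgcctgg
STIM2: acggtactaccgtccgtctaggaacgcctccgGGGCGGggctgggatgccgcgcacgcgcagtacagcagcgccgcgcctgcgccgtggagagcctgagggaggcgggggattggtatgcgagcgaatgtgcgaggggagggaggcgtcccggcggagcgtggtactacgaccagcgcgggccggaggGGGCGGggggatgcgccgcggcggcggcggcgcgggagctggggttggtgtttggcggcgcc
The windows lie at chr20:44187189-44187438 on the minus strand for JPH2, chr11:3855414-3855663 on the plus strand for STIM1 and chr4:26860591-26860840 on the plus strand for STIM2. JPH2 held 1 GC box at 62.0% GC, STIM1 held 8 at 77.2% GC, and STIM2 held 2 at 75.2% GC. Of all 27305 promoter windows of this length, 42.3% held at least 1 GC box, 24.4% at least 2 and 0.619% at least 8, and the median GC content was 58.0%. The ER stress elements ERSE (CCAAT, 9 bases, CCACG) and ERSE-II (ATTGG, 1 base, CCACG), the ATF6 and XBP1 site TGACGTGG and the ATF4 composite site TGATGNAAT were searched on both strands from 250 bases before to 50 after the start. They were in 0.0806%, 0.0549%, 0.795% and 1.02% of all promoters, and in 0 of the 6 members' windows. The absence says only that these letters are not in these windows.

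Partners of store-operated entry numbered 10, all tested, of which 2 fell, 2 rose and 6 were not called, beside 19.8% lower and 13.1% higher over all genes. TRPC6, a cation channel of the plasma membrane, rose by 3.33 (SE 0.469, adjusted p = 0.0117), from log2 signals of -8.08, -8.08 and -6.59 in VC to -4.47, -3.83 and -4.44 in KO. The VC values lay at the lower end of detection. The KO values were also below -3.67, the 95th percentile of genes seen in a single library. ORAI3, a relative of ORAI1, rose by 1.13 (SE 0.304, adjusted p = 0.0418), from -0.1, -0.71 and -0.59 to 0.08, 0.91 and 0.99. CRACR2B, an EF-hand regulator of CRAC channels, fell by 1.39 (adjusted p = 0.0348). Of the 6 fits without a library, ORAI3 and CRACR2B were called in 1, with adjusted p up to 0.114 and 0.101, and TRPC6 in 6. Of the 11 tethers between ER and plasma membrane, 3 fell, 2 rose and 6 were not called. RASSF4, which regulates STIM1-ORAI contact sites, rose by 2.52 (adjusted p = 0.0232), a call made in 1 of those 6 fits. ESYT3, an extended synaptotagmin, fell by 1.29 (SE 0.19, adjusted p = 0.0127), and VAPB, an ER membrane anchor for many contact proteins, fell by 0.73 (SE 0.0789, adjusted p = 0.00872), both called in all 6.

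Among 14 tested calcium binders and chaperones of the ER lumen and secretory pathway, 5 rose, 2 fell and 7 were not called. Over all genes, 13.1% were higher and 19.8% lower. Of the 2 that fell, HRC had values in only 2 libraries per group, near the lower end of detection. These were -6.03 and -5.52 in VC and -7.09 and -7.09 in KO. HSPA5, the ER chaperone BiP, had log2 signals of 6.0, 6.03 and 6.02 in VC and 8.51, 9.48 and 9.2 in KO (difference 3.05, SE 0.257, adjusted p = 0.0064). CALR, the calcium-buffering chaperone calreticulin, had log2 signals of 7.57, 7.46 and 7.53 in VC and 8.34, 9.1 and 9.02 in KO (difference 1.3, SE 0.219, adjusted p = 0.0154). NUCB2, a calcium-binding nucleobindin, rose by 1.48 (adjusted p = 0.0328). HSPA5 was called in all 6 fits without a library, CALR in 2 and NUCB2 in 1. The summed linear signal of the list was 742 to 744 in VC and 1320 to 2170 in KO. For the ER calcium leak, 1 of 6 tested genes rose, the translocon subunit SEC61A1, by 0.53 (adjusted p = 0.0193, called in 2 of those 6 fits). TMBIM6, a leak channel candidate, had a difference of 0.01 and TMCO1, a load-activated calcium channel, one of -0.21 (adjusted p = 0.0675).

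Phospholipase C isoforms, which make IP3, fell for 5 of 11 tested genes and rose for 1, beside 19.8% lower and 13.1% higher over all genes. Of the 5, PLCG1 (-0.55) and PLCB4 (-0.4) lie on chromosome 20, where 35.9% of genes fell, and the part of the chromosome was not tested. PLCH2 fell by 1.33 (adjusted p = 0.0401) and PLCE1, activated by small GTPases, fell by 0.79 (adjusted p = 0.0297), while PLCD1 rose by 0.9 (adjusted p = 0.0362). These 3 calls, and that of PLCB4, were made in 1 of the 6 fits without a library, and every PLCH2 value lay below -3.67, the 95th percentile of genes seen in a single library. Of 4 genes that remove IP3, 3 rose, namely the kinases ITPKC (0.85, SE 0.0927, adjusted p = 0.00874), ITPKA (0.78, adjusted p = 0.0379) and ITPKB (0.6, adjusted p = 0.0167), which were called in 6, 1 and 2 of those fits. Of 8 tested genes of calcium export, 1 fell and 1 rose. ATP2B4, a plasma membrane calcium pump, had log2 signals of 2.27, 2.27 and 2.28 in VC and 2.96, 3.22 and 3.04 in KO (difference 0.8, SE 0.0895, adjusted p = 0.00891). SLC8A1, the sodium-calcium exchanger, fell by 1.75 (SE 0.284, adjusted p = 0.0148), and ATP2C1, the Golgi calcium pump, had a difference of -0.03. ATP2B4 was called in all 6 fits and SLC8A1 in 3.

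Of 10 genes of mitochondrial calcium uptake, the channel MCU fell by 0.3 (adjusted p = 0.0372), while its subunit SMDT1 rose by 0.5 (adjusted p = 0.0144) and its gatekeeper MICU2 rose by 0.34 (adjusted p = 0.0202). Of the 6 fits without a library, these were called in 1, 3 and 2. Of 10 tested calmodulin and calmodulin kinase genes, 4 fell and 1 rose, beside 19.8% and 13.1% over all genes. CALM2, a calmodulin gene, fell by 0.45 (adjusted p = 0.0254), and the kinase CAMK2B fell by 1.34 (SE 0.177, adjusted p = 0.0106), called in 1 and 6 of those fits. Of 12 calcineurin and NFAT genes, the inhibitor RCAN2 fell by 0.44 (adjusted p = 0.0317) and the catalytic subunit PPP3CA rose by 0.25 (adjusted p = 0.0375), while the regulatory subunit PPP3R1 had a difference of -0.02. RCAN2 was called in 1 of those fits and PPP3CA in 2. Among 9 tested subunits of L-type calcium channels, CACNA2D2 fell by 0.84 (adjusted p = 0.029, called in 2 of those fits), and CACNA2D1 (0.12) and CACNB3 (0.16) were not called.

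Over these 15 lists together, 124 of 136 genes were tested, 24 fell, 21 rose and 79 were not called, so that 36.3% were called beside 32.9% over all genes, and the median difference was 0.00 beside -0.13. Of the 45 calls, 7 were made in each of the 6 fits that left out a library (TRPC6, ESYT3, VAPB, HSPA5, ATP2B4, ITPKC and CAMK2B). Without VC replicate 1, 2 or 3, 9 of 121, 17 of 122 and 9 of 123 genes were called, beside 7.54%, 13.1% and 6.57% over all genes. Without KO replicate 1, 2 or 3, 56, 25 and 11 of 122 were called, beside 47.0%, 23.6% and 10.9%. The share depended on signal as well. Among the upper 50% of signals, 36 of 74 genes of the lists were called, beside 59.1% of all genes in that fit.

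**Figure D3:**
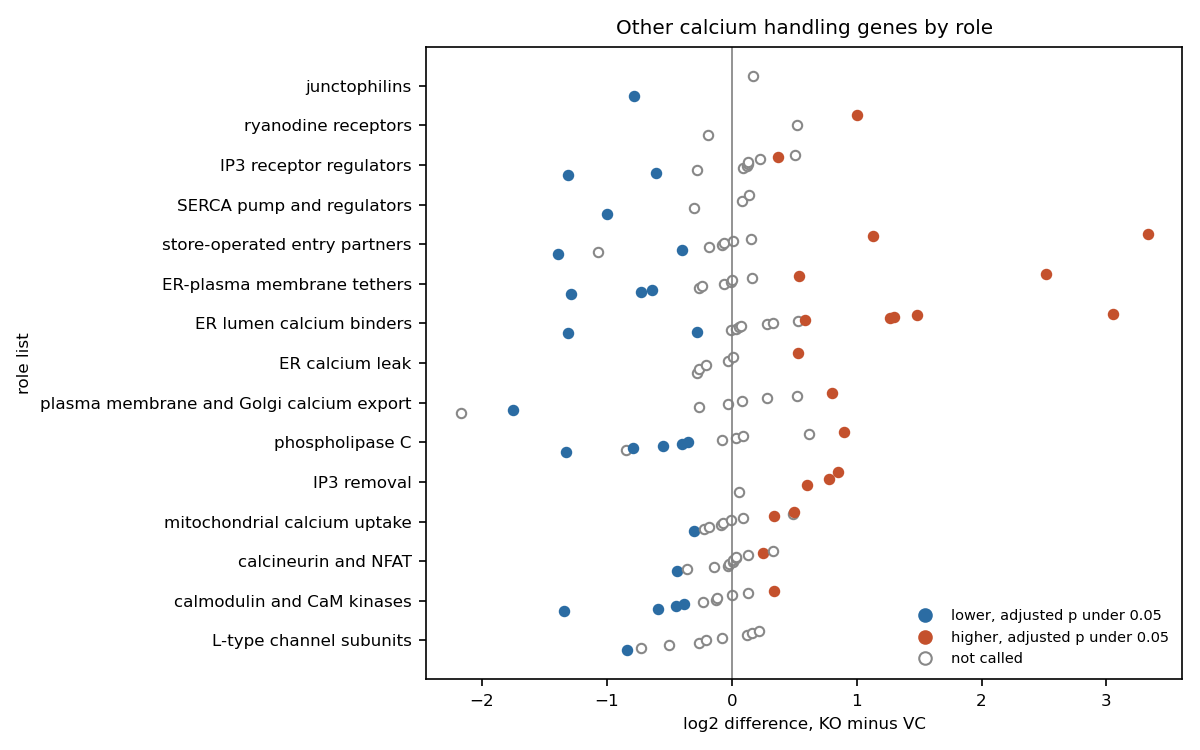
Log2 difference, KO minus VC (horizontal axis), of the other calcium handling genes by role (vertical axis), from 3 VC and 3 KO libraries; filled blue points fell, filled red points rose and open points were not called at an adjusted p of 0.05. TRPC6 at 3.33 and HSPA5 at 3.05 lie farthest to the right.

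The genes nearest JPH1 and JPH2 in the genome were lower in part as well. On chromosome 8, all 5 tested genes on either side of JPH1 had a negative difference, with a median of -0.6, and 5 of the 10 fell. LY96, adjacent on one side, had a difference of -0.29 (SE 0.309), and GDAP1, adjacent on the other, fell by 0.5 (SE 0.0869). The 635 other tested genes of chromosome 8 had a median difference of -0.32 and 34.2% fell, beside 19.8% over all genes, and 3.15% of them were lower than JPH1. On chromosome 20, the 10 neighbours of JPH2 had a median of -0.24 and 4 fell. The adjacent genes TOX2 (0.17) and OSER1 (-0.14) were close to 0. The 490 other genes of chromosome 20 had a median of -0.25, 35.9% fell, and 1.02% were lower than JPH2. By median difference these chromosomes ranked 2 and 3 from the lowest of 23. A part of the chromosomes in the junctophilin difference was not tested. VAPB, PLCG1 and PLCB4, which also fell, lie on chromosome 20. For the other lower members, STIM1 and ITPR2, the neighbours had medians of -0.33 and 0.1.

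**Figure D4:**
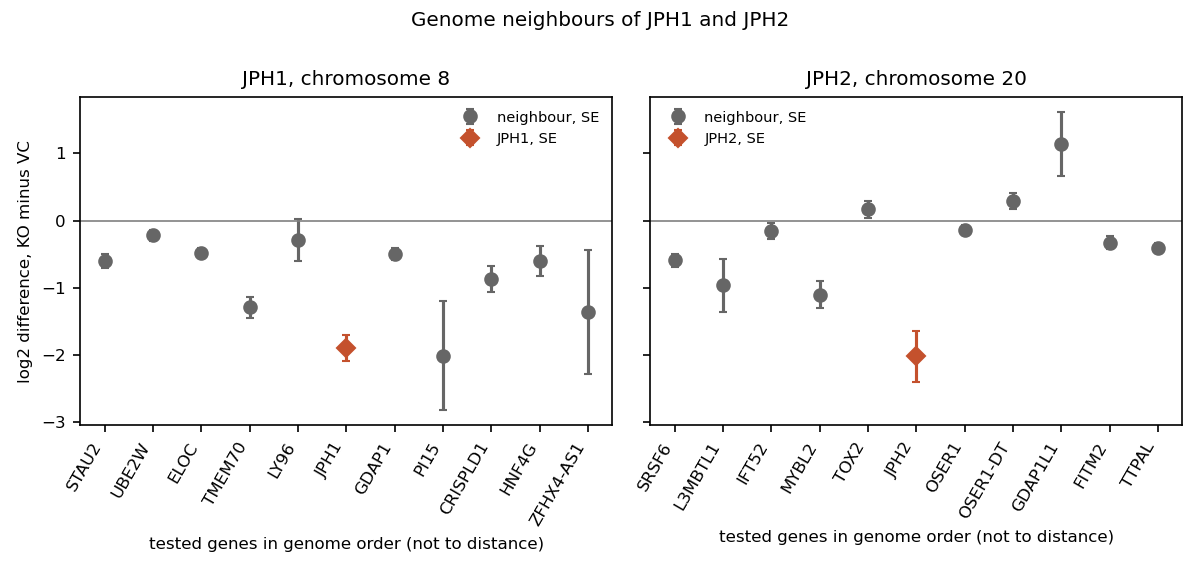
Log2 difference, KO minus VC (vertical axis), of JPH1 and JPH2 (red diamonds) and the 5 tested genes on either side (grey circles) in genome order, not to distance; bars are SE from 3 VC and 3 KO libraries. The neighbours of JPH1 all lie below 0, between -2.01 and -0.22, and those of JPH2 between -1.1 and 1.14.

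Genes whose signals followed JPH1 closely over the 6 libraries were found by the root mean square difference of gene-centred log2 signals. The measure largely reflects the KO against VC difference, and the members were chosen with that contrast in view, so closeness is a description only. Among the 5 closest were RETREG1, an ER-phagy receptor (0.0763), NUTM2E (0.0811), the homeobox gene HOXA5 (0.0982) and SAMD12 (0.102). NUTM2E belongs to a family of near-identical copies, so its value is uncertain. The linear KO signal of RETREG1 was 27.6% of that in VC, beside 26.9% for JPH1. JPH2 ranked 93 of 17697 genes by this measure, at 0.243.

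The differences of the low members depended on the scale. Once linear signals were raised by 1 before taking logs, JPH2 differed by -1.07, ITPR1 by 0.28 and ATP2A3 by 0.21. RefSeq places 20 genes over 6 of the members, 9 of them listed and without a value in any library, and the strand setting of the counting was not stated.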

How the data were processed

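The study sequenced RNA from VC and KO 143B cells. The deposited table holds log2 signals per gene symbol, which the authors had normalized. Centring the libraries on their medians over the tested genes still moved the differences, that of STIM1 from -0.53 to -0.44. The methods name Illumina sequencing, CLC Genomics and Partek, and the submitters' processing notes CASAVA, STAR, Partek and GRCh38.p13. The annotation, linear unit and read counts are not given in the sources used here, so depth is unknown and no counting interval was possible. The labels name a stranded mRNA kit and the methods total RNA. Groups came from the labels.

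Signals were compared with limma 3.58.1 in R 4.3.3 (no trend, two-sided, Benjamini-Hochberg adjusted over 19306 genes with at least 2 values per group, called under 0.05). The fit was tested on simulated data with the same spread in both groups. In the libraries the median SD per gene was 0.0943 in VC and 0.182 in KO, an inequality that the simulation did not cover. Members and lists were chosen with earlier results of these data known. Named genes are the members, CNTNAP4, up to 3 called genes of each list with the largest difference and non-overlapping groups, filled by highest signal, the 5 genes most like JPH1, and the genes adjacent to JPH1 and JPH2. Other genes are named where a count or marker list needed them, and some genes that the rule names are not reported here. Neighbours and promoters came from RefSeq GRCh38.p14. Alternatives were another scale, centring, filters, moderation, a replicate block and leaving out libraries.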

Additional observations from a re-analysis of the deposited data

How the results depend on the processing

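Depth is unknown, and each group is 3 libraries of clonal cells. Leaving out 1 library in turn gave 1223 to 8669 called genes over all genes and 9 to 56 among the other calcium handling genes. The counts therefore changed with the library left out. Each such fit also had fewer libraries to estimate spread from, and the part of this was not tested. The direction of each member was kept in all alternatives run except for ITPR3 (10 of 12) and STIM2 (8 of 12), whose differences were near 0. JPH2, ITPR1 and ATP2A3 were not in the fit of the upper 50% of signals. Median-centring the libraries turned the split of calls from 3828 lower and 2526 higher to 3066 lower and 3141 higher, and moved the median of all genes from -0.13 to -0.04. Without VC replicate 1 or VC replicate 3 the higher calls also exceeded the lower ones (757 against 646, and 654 against 569). With 1 added to the linear signal the differences were JPH1 -1.41, JPH2 -1.07, ITPR1 0.28 and ATP2A3 0.21, and with median-centred libraries ITPR3 0.1, ATP2A2 0.26 and STIM1 -0.44. The cause was not tested. Same-numbered libraries did not deviate together (r = 0.0226, 0.00509 and -0.00736 over 17698 genes), so the numbers were not taken as pairs. With a replicate block, 1533 genes over all genes and 12 of the other calcium handling genes were called, and of the members JPH1.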
